A study of Triticum aestivum with 4 samples.

Results

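In the flag leaf of the bread wheat cultivar Yangmai 16 (*Triticum aestivum*), 84 of 61115 Affymetrix probe sets lost at least 16-fold of their signal under heat after anthesis, to a like degree in progeny of unprimed and of heat-primed plants. A probe set is a group of short oligonucleotides that together report 1 transcript or several similar ones. The 84 were chosen by their values. Intensities below 12.3, the median of all values pooled over the 4 arrays, were raised to that floor, and a log2 difference of at most -4 was required in both seed backgrounds, with the differences less than 1 apart. The heat differences are therefore a description of what was selected, and none of them is tested.

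Progeny of unprimed parents (N) and of heat-primed parents (P) were grown without heat (C) or with heat (H), with 1 array for each of the groups NC, NH, PC and PH. Progeny heat (NH and PH) meant a day temperature of 34 °C and a night temperature of 30 °C over 6 days, begun on day 10 past anthesis, whereas NC and PC spent that time at 26 °C and 22 °C. Priming of the parents of PC and PH took place before flowering, with 2 days of 32 °C and 28 °C at 7 and again at 9 leaves, and after it, with 7 days of 34 °C and 30 °C begun on day 10. The parents of NC and NH received none of these treatments. The labels do not say how many plants an array stands for, replicate error is unknown for every value, and precision is limited by the number of arrays.

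The flag leaf, the uppermost leaf of the wheat stem, supplies much of the carbon that fills the grain. After anthesis it passes from active photosynthesis to senescence, when nitrogen is moved to the ear, and high temperature is known to bring that change forward. Bread wheat carries several related subgenomes, so that 1 probe set often reports the summed transcripts of similar gene copies. In whole leaves, fewer cells of a type and less RNA per cell cannot be told apart.

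All 6 leaf marker genes were above the floor on all 4 arrays, among them rbcl, the large subunit of Rubisco, at 15575 to 16875, and their summed level was 43078 on NC against 25807 on NH, and 45283 on PC against 33875 on PH. Of 5 grain genes, 2 were above the floor on all arrays, and the sum was 402 on NC against 1287 on NH, and 441 on PC against 639 on PH, with the avenin-like gene avnla leading on NH (659) and its relative avnlb on PH (518). Of 2 anther genes, raftin1a was below the floor on all 4 arrays and raftin1b just above it on all 4, at 13.4 to 16.8. The ratio of heated to unheated signal for the added poly-A control RNAs (median of 36 probe sets) was 1.87 in progeny of unprimed plants and 0.812 in progeny of primed plants, so they moved in opposite directions. For the added hybridization controls (median of 27 probe sets) the ratio was 1.02 in progeny of unprimed plants and 0.829 in progeny of primed plants. The part of these shifts in the losses described here was not tested.

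**Figure D1:**
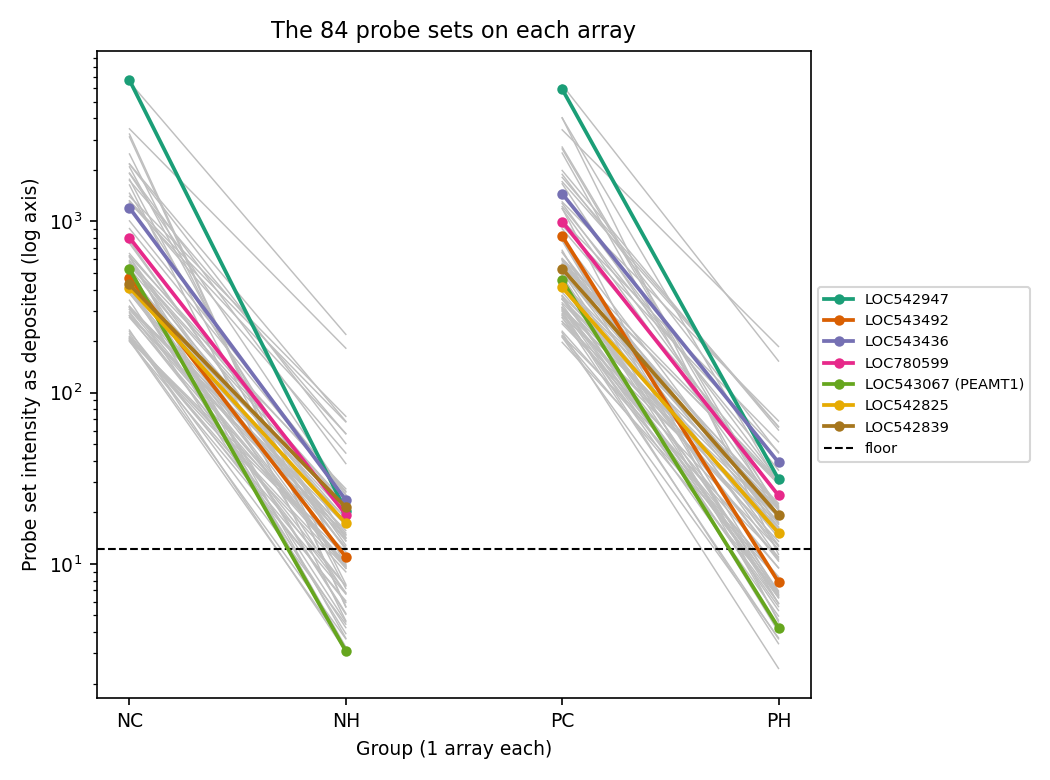
Intensity of the 84 probe sets (vertical log axis, as deposited) on the arrays NC, NH, PC and PH, with lines joining the arrays of 1 seed background and the dashed line at the floor of 12.3. The 7 probe sets with a gene symbol are coloured. Every line starts at 197 or above without heat and ends at 219 or below with heat.

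Without heat, the 84 probe sets ranged from 199 to 6673 on NC with a median of 487, and from 197 to 6259 on PC with a median of 507. Their medians lay close to those of the 6336 probe sets that reached 196 on both unheated arrays, the level needed for a 16-fold loss to be measured above the floor (475 on NC and 487 on PC). The members thus stood at levels usual for bright probe sets. A few stood far above: 2 were among the 100 brightest on NC, and 16 among the 1000 brightest. Such levels were not particular to the members. Of the bright enough probe sets with a geometric mean of 1200 or more on NC and PC, 1.54% were members, near the 1.33% of all 6336.

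With heat, the same probe sets ranged from 3.05 to 219 on NH with a median of 12.4, and from 2.45 to 186 on PH with a median of 15.2. None remained among the 1000 brightest on NH or on PH, where the best ranks were 6479 and 7208. Given their levels without heat, the 16-fold rule ensures that absence. Within each background the heated value lay below the unheated one for every member, which the rule ensures. The median log2 difference was -4.86 for NH against NC and -4.84 for PH against PC, a loss of at least 29.1-fold and at least 28.7-fold. Values below the floor were raised to it, so these folds are lower bounds. Over all 33561 probe sets above the floor on at least 1 array, the median log2 differences were 0.00 and 0.01.

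The rule took 0.25% of those 33561 probe sets and 1.33% of the 6336 that were bright enough. Averaged over both backgrounds, 25 members lost between 4 and 4.5 on the log2 scale, 25 between 4.5 and 5, 26 between 5 and 6, 2 between 6 and 7, and 6 more than 7. The number of probe sets with a rise of the same size, alike in both backgrounds, was also 84.

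**Figure D2:**
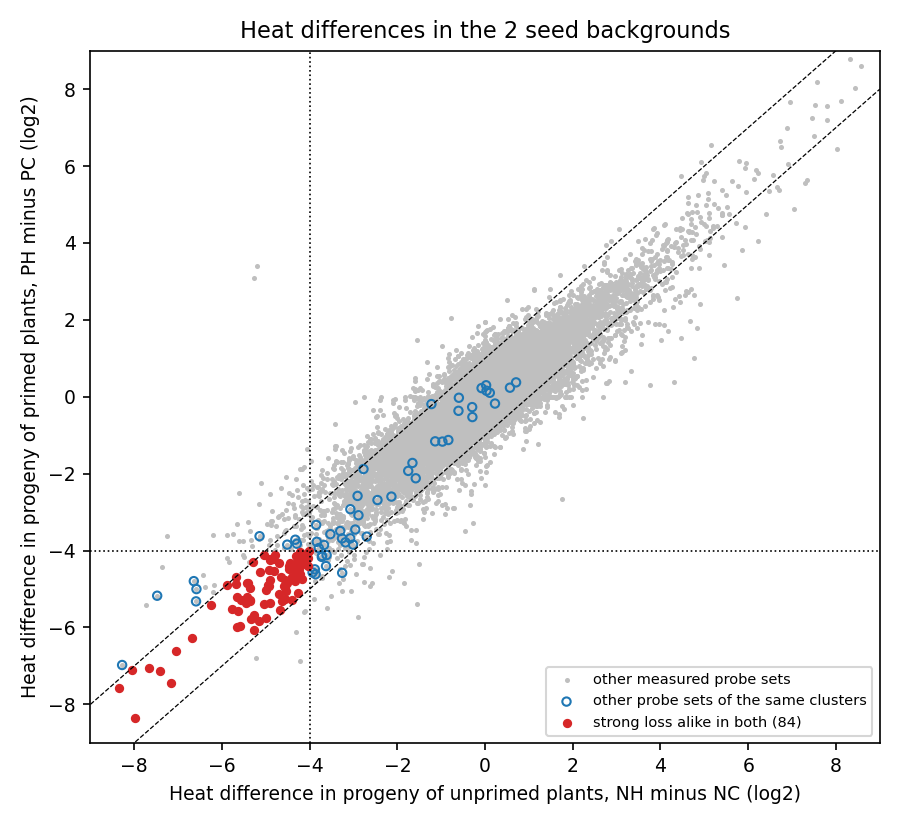
Log2 heat difference in progeny of unprimed plants (horizontal) against that in progeny of primed plants (vertical) for all measured probe sets. Dotted lines mark -4 and dashed lines a gap of 1; the 84 members (red) fill the corner between them, and most of the other probe sets from their transcript clusters (open blue circles) lie below 0 on both axes.

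Of the members, 7 carry a gene symbol and 77 have none. Among the 7, PEAMT1, listed under the locus symbol LOC543067, was the only one with a functional name in the gene table. It encodes phosphoethanolamine N-methyltransferase, which adds methyl groups to phosphoethanolamine on the way to phosphocholine. Phosphocholine serves the synthesis of phosphatidylcholine, a main membrane lipid, and of choline, the precursor of the osmolyte glycine betaine. PEAMT1 had an intensity of 526 on NC and 453 on PC, against 3.10 on NH and 4.24 on PH. Both heated arrays lay below the floor, so the loss was at least 42.8-fold in progeny of unprimed plants and at least 36.9-fold in progeny of primed plants.

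LOC542947 was the brightest member on NC. Its intensity was 6673 on NC and 5919 on PC, ranks 57 and 82 among 61115 probe sets. It stood at 20.4 on NH and 31.3 on PH, both above the floor, ranks 24247 and 20118. The loss was 327-fold and 189-fold, the log2 differences being -8.35 and -7.56. Like that of PEAMT1, its probe set has the suffix _a_at, which marks several transcripts of a gene. The gene table gives no name beyond the locus symbol for this gene or for the 5 that follow.

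LOC543436 stood at 1200 on NC and 1450 on PC and at 23.6 on NH and 39.2 on PH, a loss of 50.8-fold and 37.0-fold. Its probe set is of the type that can match several transcripts. LOC780599 had 803 on NC against 19.4 on NH and 997 on PC against 25.1 on PH, or 41.4-fold and 39.7-fold. Those losses were nearly equal, with log2 differences only 0.058 apart.

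LOC780599 also has 3 probe sets outside the rule. One fell from 197 to 23.3 on NH and from 217 to 16.89 on PH, and a second fell from 105 to 19.1 and from 93.5 to 14.5. These losses, 8.43-fold and 12.8-fold for the one and 5.48-fold and 6.43-fold for the other, went the same way from a dimmer start. The last probe set of this gene was below the floor on all 4 arrays.

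LOC543492 was the gene with a symbol that lost more in progeny of primed plants by the widest margin. It had 470 on NC and 821 on PC, and with 10.97 on NH and 7.83 on PH both heated values were below the floor. Its loss was at least 38.3-fold and at least 66.9-fold. Since the heated values are both set to the floor, the gap of 0.80 is the difference between PC and NC.

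The remaining 2 genes were the smallest losses among the 7. LOC542825 had 411 on NC against 17.2 on NH and 412 on PC against 15.1 on PH, a loss of 23.8-fold and 27.2-fold. LOC542839 had 428 on NC against 21.4 on NH and 530 on PC against 19.2 on PH, a loss of 20.02-fold and 27.6-fold. In both genes the heated values were above the floor, low and close to each other.

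The deepest losses among members without a symbol were near that of LOC542947. Ta.28058.1.S1_at had the largest mean loss of these, with 3112 on NC against 5.599 on NH and 4024 on PC against 11.4 on PH, both heated values being below the floor. Ta.26907.1.S1_at followed with 3233, 5.64, 4014 and 29.3 on the same arrays, and was below the floor on NH alone. At the other end of the residual scale, Ta.21340.1.S1_a_at held 219 on NH and 153 on PH, from 6515 on NC and 6259 on PC. Ta.28728.2.S1_x_at held 182 on NH and 186 on PH, from 3470 and 3423. These last probe sets were the only members above 100 on a heated array. After a loss of over 16-fold they were still above 44.0, the median of all measured probe sets on NC. So were some other members, among them Ta.21340.1.S1_at with 68.0 on NH and 60.5 on PH.

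What remained under heat was near or below the floor for most members. On NH 42 of the 84 were below it and on PH 36, with 32 below on both, 10 on NH alone and 4 on PH alone. For these 46 the fold is a lower bound in at least 1 background. The other 38 kept signal above the floor on both heated arrays, between 0.306% and 5.94% of the NC level on NH (median 3.55%) and between 0.529% and 6.09% of the PC level on PH (median 3.65%). The upper ends follow from the 16-fold rule. The higher of the 2 heated values was under 20 in 51 members, from 20 to 50 in 24, and 50 or more in 9.

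Members were grouped by their level before heat, which through the 16-fold rule also sets how high a residual can be. The 14 members with a geometric mean under 300 on NC and PC had median residuals of 6.38 on NH and 8.19 on PH, and 14 and 12 of them lay below the floor. The 39 members from 300 to 600 had 12.5 and 12.7, and the 13 from 600 to 1200 had 19.4 and 19.7. The 18 members at 1200 or more had 24.4 and 33.3, with 6 below the floor on NH and 2 on PH. The loss itself was deeper in the bright classes, with median mean log2 differences of -4.19, -4.75, -5.40 and -5.71 from the dimmest to the brightest class. A dim probe set cannot show a deeper loss than its distance to the floor, so the order of the losses is in part built in, as is that of the residuals.

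**Figure D3:**
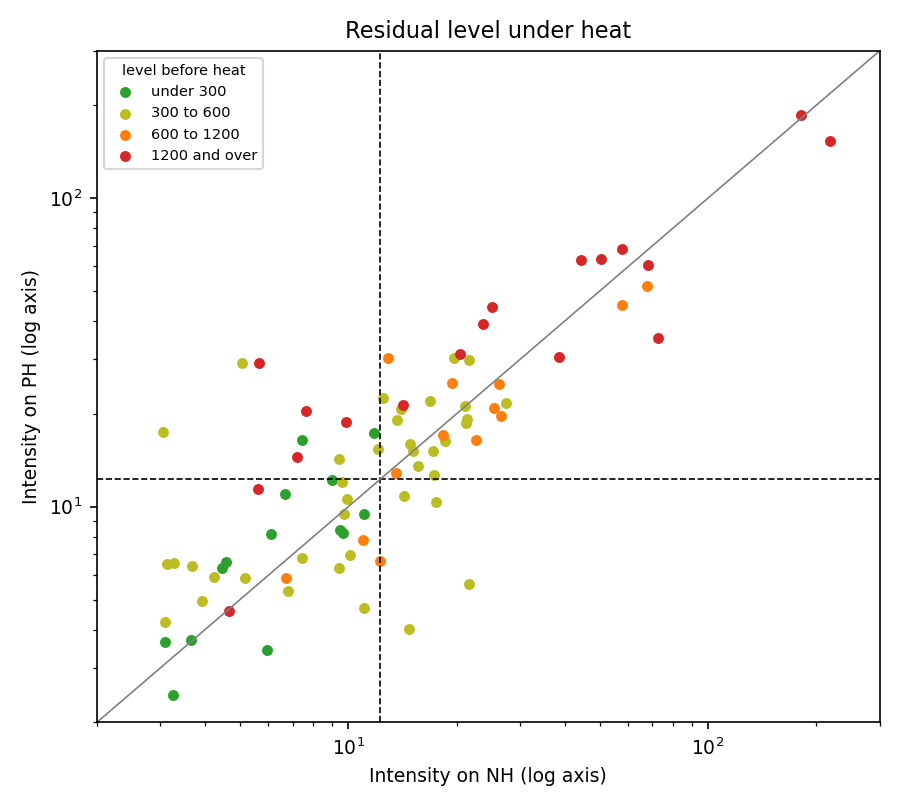
Intensity under heat of each of the 84 probe sets on NH (horizontal) and PH (vertical), both log axes, coloured by the geometric mean of NC and PC; dashed lines mark the floor of 12.3 and the grey line equality. From the dimmest class before heat to the brightest, 9 of 14, 21 of 39, 2 of 13 and 13 of 18 lie above the line of equality, values below the floor included.

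Between the heated arrays, members differed little on the whole. Of the 38 above the floor on both, 18 were higher and 19 lower on PH than on NH, with a median log2 difference of -0.04; 1 had the same value on both. Over all 84, 3 were 2-fold or more higher on PH (3.57%) and 1 lower (1.19%). Over all probe sets above the floor on NH or PH these shares were 2.27% and 1.5%, and over those bright enough without heat 4.15% and 1.44%, so the members' shares were near the background. The limit on the gap also bounds this difference. The 3 higher ones were Ta.26907.1.S1_at, Ta.12172.1.S1_at and Ta.2392.1.S1_x_at, with log2 differences of 1.26, 1.25 and 1.24, and the lower one was Ta.28337.2.S1_x_at with -1.04.

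Without heat, progeny of primed plants had the higher value in 48 members and the lower in 36. The share with PC above NC, 57.1%, was close to the 55.7% among all bright enough probe sets. The median log2 difference was 0.07 for the members and 0.03 for the bright enough. The middle 50% of members lay between -0.17 and 0.35, a wider span than the -0.10 to 0.16 of the bright enough. None passed 2-fold, the extremes being -0.99 and 0.80, against 0.347% higher and 0.189% lower among the bright enough, and 0.342% and 0.42% over all probe sets above the floor on NC or PC. For the 32 members below the floor on both heated arrays, the gap equals the size of this difference, so the rule itself kept them under 2-fold.

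**Figure D4:**
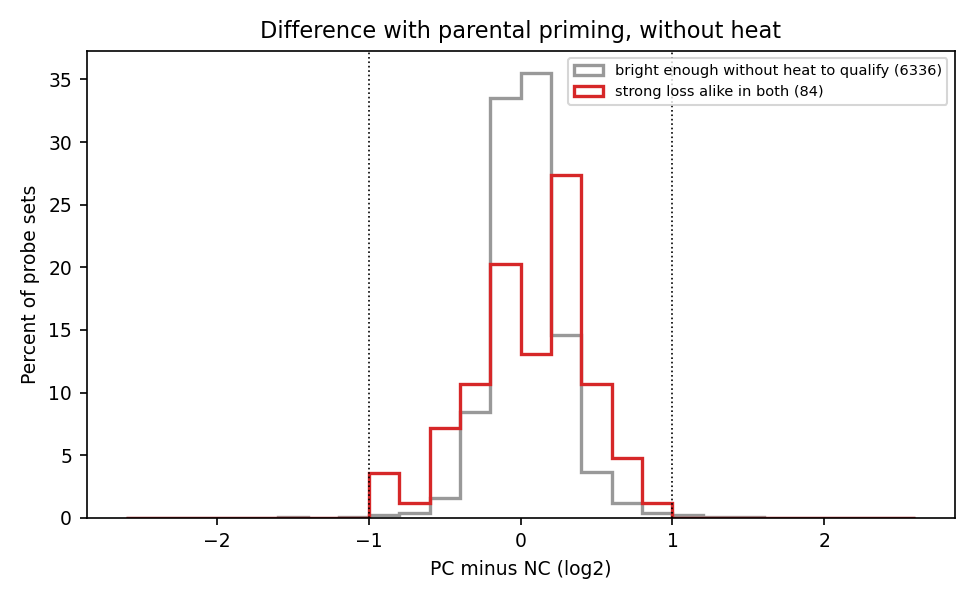
Distribution of the log2 difference PC minus NC (horizontal, bins of 0.2) as percent of probe sets (vertical), for the 84 members (red) and the 6336 probe sets bright enough without heat to qualify (grey); dotted lines mark 2-fold. The members spread more widely around 0, and none lies beyond 2-fold.

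The 84 probe sets come from 69 transcript clusters, the groups of similar sequences that the array's identifiers number. In 57 clusters, 1 probe set met the rule, in 9 clusters 2 did and in 3 clusters 3 did, so that 27 members share a cluster with another and are not separate observations of a gene. The same clusters hold 62 other probe sets that the rule did not take, of which 53 passed the floor on 1 array or more. Of these 53, 39 (73.6%) were 2-fold or more lower with heat in both backgrounds, against 7.69% of all measured probe sets. With members chosen anew the share was 27.6% with the floor at the 25th percentile, 33.6% with no floor and 38.2% at a threshold of -3. In each of these a cluster of 113 probe sets entered, and without clusters of over 20 the shares were 63.6%, 68.1% and 63.6%. Among the 26 that were bright enough to qualify, 19 were (73.1%), against 20.1%. No other probe set of these clusters was 2-fold higher in either background, but the share over all measured probe sets was not computed for comparison. The other probe sets share the arrays, the RNA and often part of their sequence with the members. These counts are therefore a description of how evenly a cluster moved.

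In 18 of the 30 clusters with another measured probe set, all others were 2-fold lower in both backgrounds, in 6 some were, and in 6 none was. In Ta.2392 and Ta.28337, both without such a fall, the only other measured probe set stood too near the floor to show one. The clusters described next were picked after their values were seen. In Ta.975, 3 probe sets fell together: the members went from 2079 and 1761 on NC to 9.84 and 7.19 on NH. The third went from 3807 to 8.64 on NH and from 4946 on PC to 39.3 on PH, and was left out by its gap alone. In Ta.5161, 3 probe sets outside the rule had log2 differences from -3.61 to -3.72 in progeny of unprimed plants and from -4.12 to -4.40 in progeny of primed plants, next to the members' -4.04 to -4.46.

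Elsewhere a cluster held both lost and steady signals. In Ta.6665, 2 members fell from 1007 and 908 on NC to 26.3 and 25.4 on NH. In the same cluster, 2 other probe sets stood at 688 and 730 on NC and at 703 and 690 on NH, with log2 differences between -0.08 and 0.23 in both backgrounds. In the cluster of PEAMT1, Ta.1842.2.S1_at, which the annotation does not assign to the gene, had 724 on NC against 1181 on NH and 693 on PC against 899 on PH, while PEAMT1 fell below the floor. Altogether 11 measured probe sets from 9 clusters stayed within 2-fold in both backgrounds. Of these, 6 had an NC level that would have let a 16-fold loss be seen. By contrast, Ta.2392.3.A1_at, Ta.28337.1.S1_x_at, Ta.5633.3.A1_at and TaAffx.128566.3.S1_at stood at 15.1 to 18.7 on NC and 12.5 to 17.7 on PC. Each was less than 2-fold above the floor, so a 2-fold fall could not have been seen and they cannot be called steady.

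**Figure D5:**
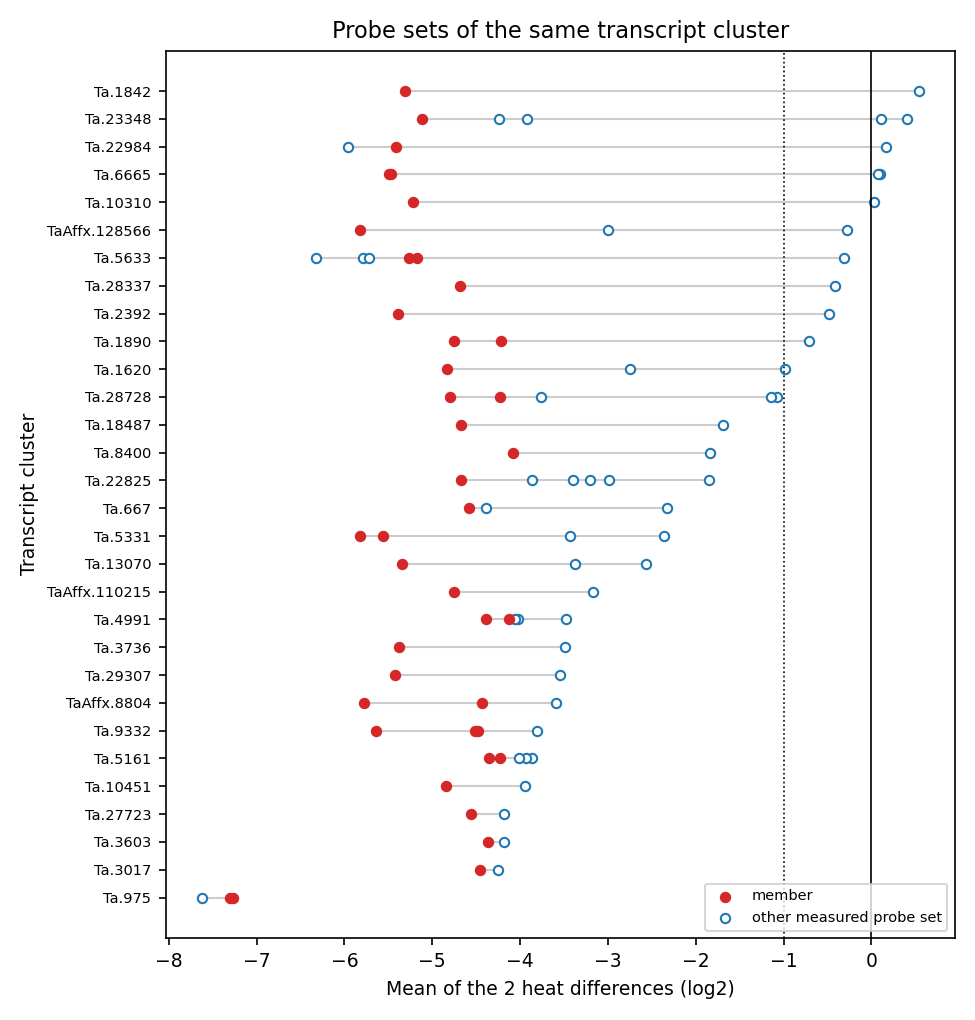
Mean of the log2 heat differences (horizontal) of each measured probe set in the 30 transcript clusters (vertical) that hold both a member (red) and another probe set (open blue). Dotted and solid lines mark 2-fold lower and no difference. In 18 clusters all open circles stand for probe sets 2-fold lower in both backgrounds, and in Ta.1842, the cluster of PEAMT1, the other probe set is above 0.

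The mix of probe set types was set beside that of the bright enough. Of the 84, 52 (61.9%) had the plain suffix for 1 transcript, against 53.7% of the bright enough. The type flagged for cross-matching sequence (_x_at) made up 23.8% against 23.2%. The types for several transcripts of 1 gene or family made up 8.33% (_a_at) against 14.9%, and 5.95% (_s_at) against 8.22%. Probe sets with the prefix TaAffx made up 15.5% of members and 11.9% of the bright enough. A gene symbol was given for 8.33% against 6.33%.

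The edges of the rule were populated on both sides. Just inside the loss threshold stood Ta.26973.1.S1_at, with differences of -4.019 and -4.002, and Ta.26797.1.A1_at, with -4.04 and -4.19. Just outside stood Ta.9542.1.S1_x_at with -4.08 and -3.999, and Ta.3788.1.A1_at with -4.79 and -3.98. At the gap limit, Ta.2392.1.S1_x_at (-5.89 and -4.90) and Ta.12172.1.S1_at (-5.28 and -4.29) were inside. Ta.1426.1.S1_at (-5.39 and -4.29) and Ta.9346.1.S1_x_at (-6.21 and -5.08) were outside.

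Nearly all probe sets that passed -4 in 1 background were also at least 2-fold lower in the other. In all, 203 probe sets were at -4 or below for NH against NC (0.621% of those above the floor on either array) and 154 for PH against PC (0.475%), with 105 in both. The 21 of these left out by their gap lost more in progeny of unprimed plants in 16 cases and in progeny of primed plants in 5. Another 98 passed -4 in progeny of unprimed plants alone, with a median of -3.21 in the primed, and 96 of them were also 2-fold lower there. The 49 that passed in progeny of primed plants alone had a median of -3.26 in the unprimed, and all 49 were 2-fold lower there.

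Of the genes with a symbol, 6 that are not members passed -4 in at least 1 background. LOC543355 passed in both on 2 probe sets, with -7.72 and -5.41 on one and -6.19 and -4.91 on the other, and was left out by the gap. GAPN, a glyceraldehyde-3-phosphate dehydrogenase of the non-phosphorylating kind, had -5.53 and -3.74, and lgul, glyoxalase I of methylglyoxal detoxification, -4.89 and -3.72. LOC543106 had -5.16 and -2.78, and LOC606363 -4.05 and -2.99. In each of these 5 genes the loss was greater in progeny of unprimed plants. LOC542871 was lost nearly evenly, with -4.03 and -3.83, from 3550 to 217 on NH and from 3169 to 223 on PH.

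PEAMT1 was the only gene of the lists by function among the 84. It was also the only member with a functional name, so no other member could have matched a list. Among 612 measured genes with a symbol, 86 (14.1%) were 2-fold lower in both backgrounds. Of 4 methyl transfer genes, 3 were. Besides PEAMT1 these were SAHH, which clears the S-adenosylhomocysteine that methyl transfer leaves behind, with log2 differences of -1.29 and -2.09, and COMT1, caffeic acid O-methyltransferase of lignin synthesis, with -1.30 and -2.08. PIMT, protein isoaspartyl methyltransferase, had 1.105 and 0.61. The medians of this list were -1.29 and -2.08, against -0.07 and -0.13 over the 612 genes. The lists were chosen with earlier results of these data known, and this one includes PEAMT1, selected here for its loss. The 612 genes were not matched to it for level before heat. These shares and medians are therefore a description.

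Both measured triose phosphate genes, GAPN and Pgk-1 (phosphoglycerate kinase, -3.47 and -2.30), were 2-fold lower in both backgrounds. Of 7 photosynthesis genes, 2 were: FBP, fructose bisphosphatase (-3.92 and -2.30), and Trx-M, thioredoxin m (-2.51 and -1.58). Of 3 genes for tubulin, profilin and histone, 2 were, the beta-tubulin tubb1 (-2.14 and -2.45) and the histone H2B wcH2B-8 (-3.10 and -3.29). AGA.1, a subunit of ADP-glucose pyrophosphorylase in starch synthesis, was 1 of 2 starch and fructan genes (-3.05 and -2.29). Of 4 defence genes, 1 was lower and 1 higher. The lower one, PR5, a thaumatin-like protein, had 196 on NC, just under the level needed, 146 on PC, and 7.50 and 7.47 on NH and PH, so that a loss of the rule's size was out of its range in both backgrounds.

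In the cold and dehydration list, none of 3 measured genes rose 2-fold in both backgrounds, with differences from -0.02 to 0.22. Without heat these 3 genes stood near the floor, at 15.5 to 22.6 on NC and 13.4 to 23.3 on PC. Each value was less than 2-fold above the floor, so a 2-fold fall could not have been seen. The measured heat shock gene FKBP70, a peptidyl-prolyl isomerase, had 0.91 and 0.72, and the lipid transfer protein LTP3 -1.53 and -0.62.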

How the data were processed

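Total RNA (6 µg per sample) from flag leaves was labelled and hybridised to Affymetrix wheat arrays, as the labels' protocols state. The authors deposited 1 intensity per probe set and array, on a linear scale. Per the submitters' processing notes the tool was MAS5. How arrays were scaled, which version was run and which probe sets were called present is not given in the sources used here. Between 10.1% and 13.7% of each array's values recur exactly on another array, for the same or any other probe set. An identical value for the same probe set on 2 arrays of a compared pair was found for 4008 of 61115 probe sets. Of 61290 probe sets, 175 controls were left out. The floor was the 50th percentile of the other values, and log2 was taken after flooring; where 1 of the values compared was under the floor, the fold is a lower bound. Gene symbols came from the platform annotation (1273 probe sets with 1 symbol, 0 with several, 59842 with none), and synonyms from the gene table of IWGSC CS RefSeq v2.1; all 7 member symbols matched. In gene lists, the brightest probe set stands for a gene.

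With 1 array per group and members chosen on both heat differences, no test was made. Named were all members with a symbol, and of the others 2 each by largest loss, level before heat and residual level and at each edge of the rule. Members, lists and comparisons were chosen with earlier results of these data known. The alternatives concerned the floor, scaling, thresholds and probe set types. The code of the selection was checked on simulated arrays with known losses placed in bright probe sets. That check used an assumed noise and does not measure replicate error. Values were computed in Python 3.11.15 with pandas 2.3.3 and numpy 2.4.6, and drawn with matplotlib 3.10.9.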

Additional observations from a re-analysis of the deposited data

Results flagged for a closer look

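Control probe sets for sucrose synthase, a wheat gene that the array carries among its controls and that no comparison above uses, were brighter on the heated arrays. The ratio of NH to NC was 3.90 for the 3' probe set and 4.997 for the middle one, and the ratio of PH to PC was 3.70 and 3.44. Their signal moved opposite to that of the 84 lost probe sets in both seed backgrounds.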

How the results depend on the processing

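The number of probe sets with strong loss alike in both backgrounds depended on the floor, the threshold and the probe set types more than on scaling. It was 80 with median scaling and 85 with quantile normalization, of which 80 and 83 were among the 84. It was 102 with the floor at the 25th percentile (71 shared, 31 added), 105 with no floor (69 shared, 36 added), 36 with the floor at the 75th percentile (22 shared), 45 with a pseudocount in place of the floor (42 shared), 224 at a threshold of -3, 24 at -5, and 52 without the suffixes _a_at, _s_at and _x_at. The median log2 level before heat, 8.92, was 8.35 with the floor at the 25th percentile, 10.73 at the 75th, 10.16 with the pseudocount, 8.30 with no floor, 8.34 at -3, 10.08 at -5, 9.14 with no limit on the gap and 8.82 without those suffixes. The median for NH against NC was -3.97 at -3, -5.64 at -5 and -4.62 with a gap under 0.5. That for PH against PC was -5.04 with the 25th percentile, -5.03 with no floor, -3.95 at -3, -5.81 at -5 and -4.72 without the suffixes. The median for PC against NC was 0.29 at -5, over 24 members. Members past 2-fold for PC against NC numbered 1 with the 25th percentile and with no floor, 2 at -3 and 4 with no limit on the gap. The share of other probe sets of the same clusters 2-fold lower in both was 27.6% with the 25th percentile and 33.6% with no floor. It was 38.2% at -3, 65.6% with the pseudocount (of 32 probe sets) and 60.0% without the suffixes (of 10 probe sets). The first 3 of these are given above without the cluster of 113 probe sets. The shifts of the median losses at -3 and -5, and of the level before heat with the floor, are in part built in. For other values that moved, the cause was not tested. Of 84 values for the 7 genes with a symbol under 6 alternatives, 72 stayed at -4 or below, 9 did not with the floor at the 75th percentile and 3 with the pseudocount, and 0 changed sign. No paired analysis was possible because each group has 1 array, so that the groups share fewer than 2 replicate numbers.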
